A study of Mus musculus with 12 samples.

Results

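The let-7 family is a set of microRNAs (miRNAs) that share the same 5′ end, and the members described here are let-7a, let-7c, let-7d, let-7e, let-7g and let-7i. let-7b and let-7f, the other classical mouse members, could not be named among the assays and are not analysed here. What is said of the family covers the 6 that were. These 6 were taken by name and not by the size of any change, though names were found by matching measured values to the study's lists. They are 6 of the 269 assays that could be named among the 593 assays of a TaqMan low-density array. On such a card each miRNA is read by its own quantitative RT-PCR. The study followed granulopoiesis, the making of granulocytes in the marrow, in C57BL/6 mice. Bone marrow cells were separated by flow cytometry into LSK cells (Lin-Sca1+cKit+, the stem cell compartment) and, along the granulocyte path, promyelocytes, then myelocytes, then granulocytes, and RNA was taken from whole cells, from cytoplasm and from nuclei of each. None of the 4 stages carried a transgene, a deletion or a drug treatment in the labels. Each combination of stage and fraction was 1 sample of 100 ng of RNA with 1 well per assay, 12 samples in all, so no spread between replicates can be given, no test was made, and every difference stands as a comparison of these particular samples. How many mice gave each sample is not given in the sources used here.

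MiRNAs are short RNAs that guide Argonaute proteins to messenger RNAs, mainly through the seed, the bases just after the 5′ end, and lower the output of those messages. The let-7 miRNAs are known for accumulating as cells leave the stem cell state, and their processing from precursor to mature form is held back in many stem cells by LIN28 proteins. Several genes encode nearly identical mature let-7 miRNAs, which share seed-matched targets such as Hmga2, a chromatin protein of fetal stem cells, and genes of the Ras family.

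The mature sequences show why the members are read as a family and how little separates their assays. They are from RefSeq, build GRCm38.p6, 5′ to 3′, with the seed, bases 2 to 8, in capitals. All 6 members were matched. miR-98 has the same seed under a different name and is shown for comparison.
let-7a: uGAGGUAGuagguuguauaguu
let-7c: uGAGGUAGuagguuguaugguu
let-7d: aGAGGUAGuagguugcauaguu
let-7e: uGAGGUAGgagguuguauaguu
let-7g: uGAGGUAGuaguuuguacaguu
let-7i: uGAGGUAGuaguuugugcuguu
miR-98: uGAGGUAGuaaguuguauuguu

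The seed is held by 11 of 1679 mature mouse miRNA names in the RefSeq table, or 0.655%. Counting from 1 at the 5′ end, and giving the base of let-7a first, let-7c differs from let-7a by A19G and let-7e by U9G. The differences are U1A and U16C in let-7d, and G12U and U18C in let-7g. let-7i has the most, namely G12U, A17G, U18C and A19U. The number of differing bases ran from 1 (let-7a with let-7c or let-7e) to 6 (let-7d with let-7i) over the 15 pairs of members, and let-7g and let-7i differ from each other by 2 bases. Whether an assay also reads a member that differs by 1 base was not tested here, and let-7a, let-7c and let-7e are the members this touches most.

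The listed genes lie on separate chromosomes apart from let-7a and let-7d. let-7a is listed at chr13:48538239-48538260 on the minus strand, the 1 entry of the table used, and its other mouse gene is not described here. let-7d is at chr13:48536078-48536099 on the same strand, with 2065 bases between their annotated entries. let-7c is encoded by 2 genes with the same mature sequence, Mirlet7c-2 at chr15:85706616-85706637 and Mirlet7c-1 at chr16:77599672-77599693, both on the plus strand. Neither the let-7a nor the let-7c assay can say which gene the RNA came from. let-7e is at chr17:17830366-17830387 on the plus strand, within the span of the protein-coding gene Spaca6. let-7g is at chr9:106178846-106178867 on the plus strand, within the span of Wdr82. let-7i is at chr10:122985698-122985719 on the minus strand. Whether a mature sequence falls in an exon or an intron of Spaca6 or Wdr82 was not analysed here.

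The deposited values are CT values, the cycle at which a well crossed the detection threshold. A lower CT means more template, and 1 cycle is a 2-fold difference at full efficiency. An undetermined well is listed at 40. A CT under 30 is taken here as reliable. Because primers differ in efficiency, a CT orders the samples of 1 assay and gives no fold between different miRNAs. Between 259 and 288 of the 593 assays were under 40 in whole cell RNA, 263 to 294 in cytoplasmic and 199 to 229 in nuclear RNA. miR-223, the classical granulocyte miRNA, had whole cell CTs of 23.98, 19.48, 17.33 and 16.43 from LSK to granulocytes, with more of it at each later stage. miR-126-3p, a stem and progenitor miRNA, was lowest in CT in LSK at 24.34 and lay between 27.02 and 27.62 elsewhere. miR-150, a lymphocyte miRNA, was at 25.13, 28.78, 25.60 and 25.84, so that promyelocytes had the least of it. Its part in any let-7 value was not tested, nor was that of the erythroid miR-451 and miR-144, which could not be named.

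All 6 members were detected in every sample, and in whole cell RNA 5 of them had their lowest CT, hence their highest level, in promyelocytes. In LSK cells the CTs ran from 25.91 for let-7e to 30.24 for let-7a, the only whole cell value of a member above 30. From LSK to granulocytes let-7a was at 30.24, 28.78, 28.80 and 29.59. The promyelocyte and myelocyte values thus lay within 0.02 cycles of each other. let-7c was at 28.65, 27.88, 28.42 and 28.61 in the same order of stages. let-7d was at 28.72, 27.35, 27.77 and 28.13. let-7i was at 27.12, 25.41, 25.72 and 25.87. In raw CT these members had their least template in LSK and their most in promyelocytes, with let-7c in granulocytes only 0.04 cycles from LSK. Once scaled as described below, the lowest stage of let-7a, let-7c and let-7d was the granulocyte, and only let-7i kept LSK. In RNA of sorted populations, fewer cells with a miRNA and less of it per cell cannot be told apart.

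let-7e and let-7g stood apart from this course in different ways. let-7e was nearly level, at 25.91, 25.65, 25.72 and 25.69, a span of 0.25 cycles over the 4 stages. let-7g was at 26.37, 25.28, 24.54 and 23.97 from LSK to granulocytes, a span of 2.40 cycles. It had more template at each later stage and was the only member whose level was highest in granulocytes.

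**Figure D1:**
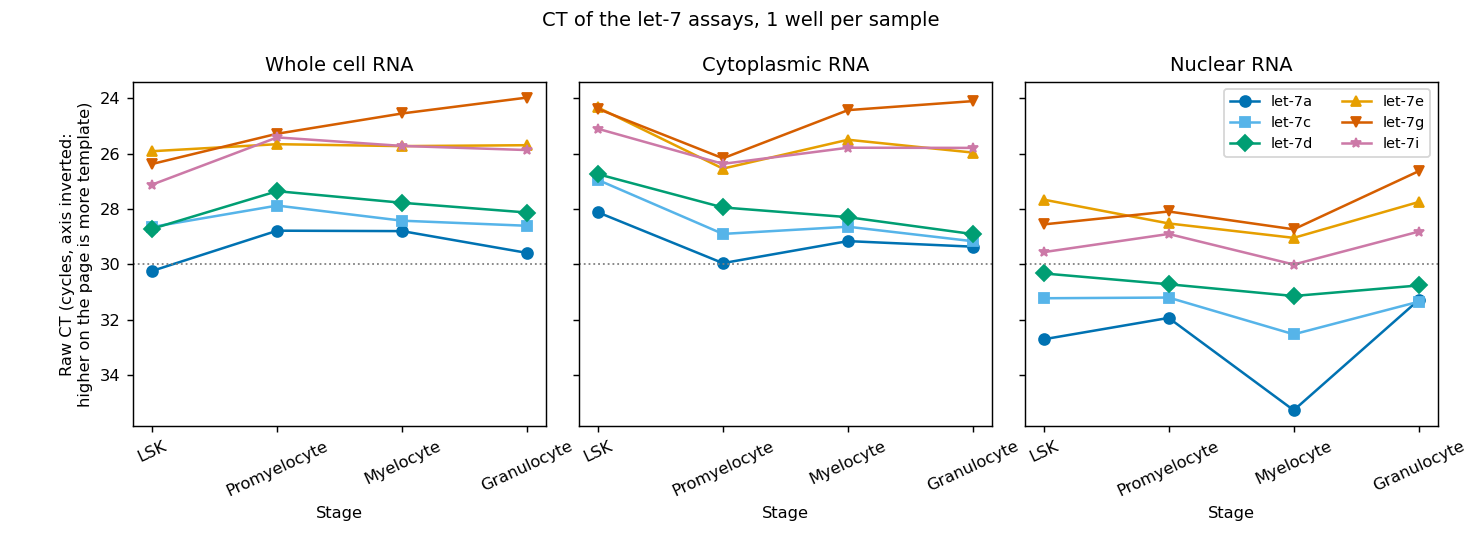
CT of each let-7 assay (vertical axis, cycles, inverted so that more template is higher on the page) by stage, in whole cell, cytoplasmic and nuclear RNA, with 1 well per point and a dotted line at the CT of 30. In whole cell RNA let-7g goes from 26.37 in LSK to 23.97 in granulocytes while let-7e stays between 25.65 and 25.91, and in cytoplasm 5 of the 6 lines are highest in LSK.

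The comparison of stages in whole cell RNA asked which miRNAs change along granulopoiesis. CT differences were scaled by the last 3 assays of the table, taking their average CT in each sample, and a log2 change above 0 means a higher level in the stage named first. Promyelocytes had more of most members than LSK cells did. let-7i was highest, at a scaled log2 change of 1.46, followed by let-7a at 1.21 and let-7d at 1.11. let-7g was at 0.85, let-7c at 0.53 and let-7e at 0.01. So 3 of the 6 members were at least 2-fold higher and 0 were 2-fold lower, against 34.9% higher and 19.4% lower among the 129 named assays that were under 30 in at least 1 whole cell sample. The median change was 0.98 over the members and 0.42 over the 129 assays. Over all 140 assays under 30, named or not, it was 0.34. The study listed the 129 as differing between stages, so their shares past 2-fold are not a neutral background, here and below. The let-7a change rests on an LSK value above the CT of 30. With the mean of named assays as the constant only let-7i passed 2-fold, at 1.13, beside 35 of the 129 assays higher, and let-7e turned to −0.33.

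From promyelocytes to myelocytes the members changed little. None passed 2-fold in either direction, against 42.6% of the 129 assays higher and 13.2% lower. let-7g was the only member clearly above 0, at a scaled log2 change of 0.74. The other changes were 0.00 for let-7a, −0.06 for let-7e, −0.30 for let-7i, −0.41 for let-7d and −0.54 for let-7c. The median change of the members was −0.18, where that of the 129 assays was 0.75. With the mean of named assays as the constant the median was −0.69 and let-7c passed 2-fold, at −1.05, beside 33 of the 129 assays lower.

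Granulocytes had less of 5 members than myelocytes did, but only let-7a was lower by 2-fold or more. Its scaled log2 change was −1.23, beside −0.79 for let-7d, −0.62 for let-7c, −0.59 for let-7i, −0.41 for let-7e and 0.14 for let-7g. The background in this comparison was 10.1% higher and 9.3% lower. With no scaling, or with control assays of the card that carries the let-7 assays, no member was lower by 2-fold here, beside 6 and 7 of the 129 assays, and without scaling let-7e was at 0.03.

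Granulocytes against promyelocytes set let-7g and the other members on opposite sides of 0. let-7a, let-7d and let-7c were lower in granulocytes by 2-fold or more, with scaled log2 changes of −1.23, −1.20 and −1.16, while let-7i was at −0.89 and let-7e at −0.46. let-7g alone was higher, at 0.88. That is 3 of 6 members lower and 0 higher by 2-fold, where 22.5% of the 129 assays were lower and 50.4% higher. The median change of the members was −1.02 and that of the 129 assays 1.004, so most assays were higher in granulocytes while most let-7 members were lower. The count of 3 lower members depended on the scaling constant. It was 0 without scaling, where the members' median was −0.59, 2 with the control assays of their own card and 4 with the mean of named assays, beside 16, 20 and 39 of the 129 assays on the same scalings. let-7g passed 2-fold higher without scaling, at 1.31, and with the control assays of its card, at 1.08, as did 75 and 71 of the 129 assays.

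The distance between the members and the other assays does not depend on the scaling, since a constant cancels from it. In granulocytes against promyelocytes the median of the members lay 2.03 below the median of the 129 assays on the log2 scale in whole cell RNA, 0.74 below it in cytoplasmic RNA and 0.90 below it in nuclear RNA. let-7g itself lay 0.12 below that median in whole cell RNA and 0.75 above it in cytoplasm. Its course in whole cell RNA was therefore close to that of the middle assay, and the other 5 members lay between 1.47 and 2.24 below it. With all 140 assays under 30, named or not, the median change was 0.95 in place of 1.004.

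From end to end of the series, granulocytes against LSK, let-7g was the only member past 2-fold. Its scaled log2 change of 1.73 is a 3.31-fold higher level in granulocytes. let-7i was at 0.57, let-7a at −0.03, let-7d at −0.09, let-7e at −0.46 and let-7c at −0.63. Thus 1 of 6 members was higher and 0 lower, beside 54.3% of the 129 assays higher and 17.1% lower. This comparison depended most on the scaling. With the mean of named assays as the constant let-7g was at 0.89, under 2-fold, let-7i turned to −0.26, and let-7c and let-7e passed 2-fold at −1.47 and −1.29. On that scaling 52 of the 129 assays were higher and 35 lower. Without scaling 86 were higher, let-7i passed 2-fold at 1.25, and let-7a, let-7d, let-7e and let-7c turned to 0.65, 0.59, 0.22 and 0.04.

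**Figure D2:**
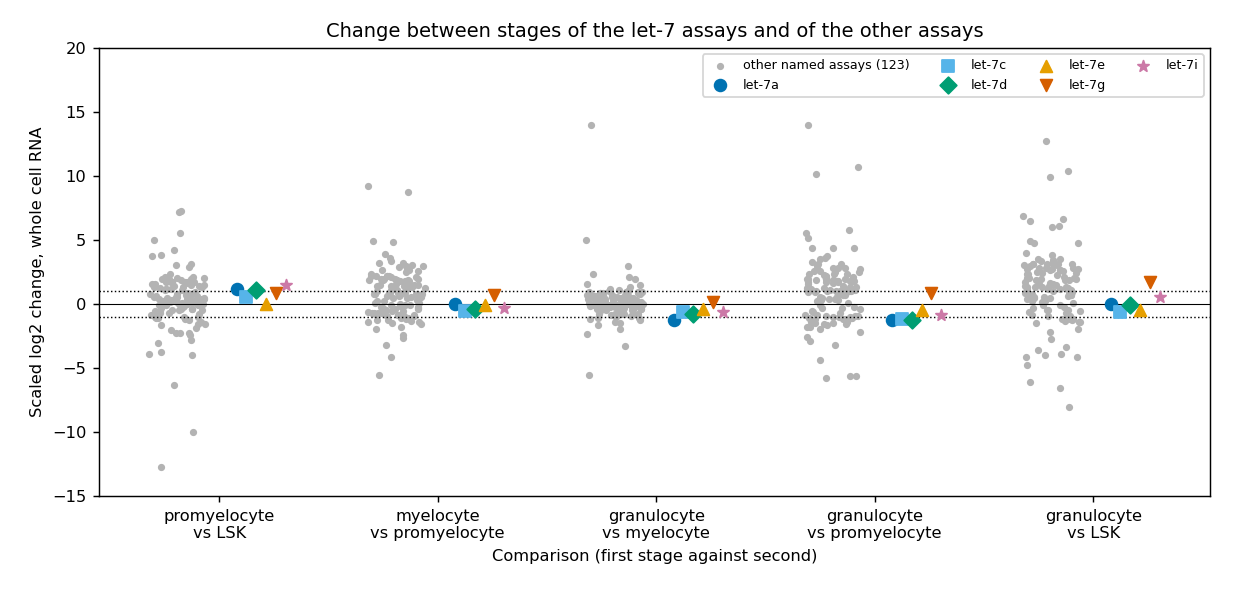
Scaled log2 change in whole cell RNA (vertical axis) for 5 comparisons of stages, with each let-7 assay as a coloured symbol, the other 123 named assays as grey points, and dotted lines at 2-fold. In granulocytes against promyelocytes let-7g is at 0.88 and the other members are between −0.46 and −1.23, while 50.4% of all 129 assays are at or above the upper line.

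The members moved over a narrow range. The scaled spans over the 4 stages, from the highest to the lowest level, were 0.46 for let-7e, 1.16 for let-7c, 1.20 for let-7d, 1.23 for let-7a, 1.46 for let-7i and 1.73 for let-7g, all on the log2 scale. The median span of the 129 assays was 2.40, above every member. These are assays that the study listed as differing between stages, so they are not a neutral background for a span. Over all 140 assays under 30 the median was 2.22. Neighbouring stages were often close. The highest stage of let-7a, the promyelocyte, was ahead of the myelocyte by 0.004, and that of let-7e by 0.01 over LSK, margins that 1 well per assay cannot resolve. The margins were 0.30 for let-7i, 0.41 for let-7d and 0.53 for let-7c, and for let-7g, where granulocytes were highest, 0.14 over myelocytes.

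let-7g was then set against the mean CT of the other 5 members within each sample, a difference from which any scaling drops out. In whole cell RNA this difference was −1.76, −1.74, −2.75 and −3.61 cycles from LSK to granulocytes. The first pair of stages was alike, and let-7g gained on its relatives at the next 2 steps. The gain on the log2 scale was −0.02 for promyelocytes against LSK, 1.87 for granulocytes against promyelocytes and 1.85 for granulocytes against LSK.

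The separately prepared cytoplasmic RNA gave a like course. The difference was −1.87, −1.78, −3.05 and −3.74 cycles from LSK to granulocytes, and the gain of granulocytes over promyelocytes was 1.96. In nuclear RNA the difference was −1.74, −2.17, −2.87 and −3.36 cycles, and the same gain was 1.20. Granulocytes had more let-7g relative to each of the other 5 members, taken singly, than promyelocytes or LSK had, in all 3 kinds of RNA. The smallest such gain was 0.50, against let-7a in nuclear RNA of granulocytes over LSK, and both let-7a wells behind that value are above the CT of 30.

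**Figure D3:**
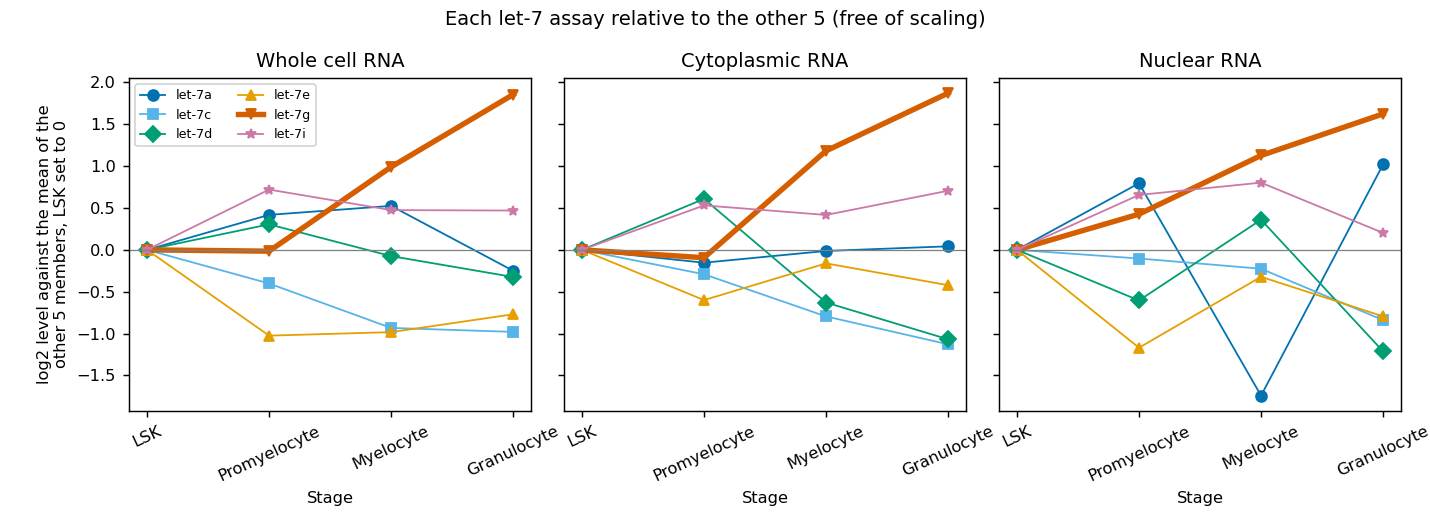
log2 level of each let-7 assay against the mean of the other 5 members in the same sample (vertical axis), with LSK set to 0, by stage in whole cell, cytoplasmic and nuclear RNA, 1 well per value. The thick let-7g line ends at 1.85, 1.87 and 1.62 in granulocytes, above every other member in each panel.

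No other member shifted this far against the rest in whole cell RNA. For granulocytes against LSK the relative shift was 0.47 for let-7i, −0.25 for let-7a, −0.32 for let-7d, −0.77 for let-7e and −0.98 for let-7c. In cytoplasm let-7d and let-7c were the lowest, at −1.07 and −1.13. Nuclear let-7a was the most uneven value, with a CT of 35.28 in myelocytes beside 32.71, 31.94 and 31.29 in LSK, promyelocytes and granulocytes. That is a single well far above the CT of 30.

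In cytoplasmic RNA the raw CTs of LSK and promyelocytes were in the opposite order to that in whole cells, and this order depended on the scaling. Over the stages, LSK first, let-7e had raw cytoplasmic CTs of 24.33, 26.54, 25.49 and 25.96. let-7g was at 24.38, 26.16, 24.42 and 24.10, and let-7i at 25.10, 26.37, 25.78 and 25.79. Each of them had a higher raw CT in the promyelocyte than in the LSK sample. let-7a was at 28.12, 29.96, 29.16 and 29.36. let-7c was at 26.95, 28.90, 28.64 and 29.17, and let-7d at 26.74, 27.94, 28.29 and 28.91. In raw CT, LSK had the lowest value for 5 members, and granulocytes had it for let-7g.

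The raw log2 change of promyelocytes against LSK in cytoplasm was below 0 for all 6 members, from −2.21 for let-7e to −1.20 for let-7d, with a median of −1.81. In whole cell RNA the same raw median was 1.23, with all 6 members above 0. The 129 assays had a raw cytoplasmic median of −1.23, so a downward shift was shared by the plate, and the members lay 0.59 below it. In whole cell RNA they lay 0.56 above the median of the 129. Scaling by the last 3 assays of the table brought the cytoplasmic median of the members to 0.04, with 4 of 6 above 0. It was −0.64 with the mean of named assays and none above 0, 0.18 with the 6 control assays and 5 above 0, and 0.60 with the control assays of the members' card and all 6 above 0. The last 3 assays and those of the members' card are among the 6 control assays, so these scalings overlap. Each control assay had a lower nuclear than cytoplasmic CT.

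Cytoplasmic granulocytes against promyelocytes also turned with the scaling. The raw log2 change had a median of 0.58, with 4 of 6 members above 0 and let-7g at 2.07. With the last 3 assays all 6 members were lower by 2-fold or more, with a median of −2.69 and let-7g at −1.20. So were 88 of the 129 assays, whose median went from 1.32 raw to −1.94. Granulocytes against LSK kept its direction, with members' medians between −1.37 and −2.85 over the 5 scalings. On these, 4 to 6 members were lower by 2-fold or more, beside 36 to 71 of the 129 assays. The exception to this direction was cytoplasmic let-7g, at 0.28 raw and −1.14 scaled. let-7g was the highest of the 6 in both comparisons, which no scaling can change.

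Setting whole cell against cytoplasmic RNA of the same stage shows where the raw orders part. In LSK the whole cell CT of the members was higher than the cytoplasmic CT by 1.58 to 2.12 cycles, with a median of 1.99, while the median of 83 assays under 30 in both was 1.32. In promyelocytes it was lower by a median of 0.92 cycles. In myelocytes and granulocytes the medians were −0.14 and −0.20 cycles. For the members, LSK thus had the largest difference between whole cell and cytoplasmic RNA. The last 3 assays of the table gave −2.06 cycles in LSK and −4.16 in promyelocytes, so by the scaling assays promyelocytes differed more. Differences of RNA input, reverse transcription or card between these samples cannot be told apart from the fraction, since each was run as 1 sample.

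Nuclear RNA held less of every member than cytoplasmic RNA at every stage. Nuclear CTs of let-7e were 27.66, 28.52, 29.04 and 27.75 from LSK to granulocytes. Those of let-7g were 28.56, 28.09, 28.73 and 26.63, and those of let-7i were 29.56, 28.90, 30.01 and 28.82. These members had nuclear wells under the CT of 30 at 3 or more stages. Nuclear let-7d was at 30.33, 30.72, 31.15 and 30.76, and let-7c at 31.23, 31.20, 32.53 and 31.35. All of the nuclear wells of let-7a, let-7c and let-7d were above the CT of 30.

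The nuclear to cytoplasmic ratio asks whether a miRNA is kept in the nucleus. It is 2 raised to the difference of cytoplasmic and nuclear CT, divided by 3. The median ratio of the members was 0.0178 in LSK and 0.0201 in myelocytes, beside 0.0760 in promyelocytes and 0.0805 in granulocytes. Promyelocytes and granulocytes had higher ratios than LSK and myelocytes for each member, by the narrowest margin for let-7d in promyelocytes against myelocytes. The ratio of let-7d was 0.0276, 0.0486, 0.0462 and 0.0921 from LSK onward. The 6 control assays, chosen for a lower nuclear than cytoplasmic CT, had median ratios of 3.50, 22.96, 2.74 and 0.735 in the same order. How far the separation of the fractions differed between stages, and its part in the members' ratios, was not tested.

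None of the members exceeded a ratio of 0.1 at any stage. Of the named assays whose cytoplasmic CT was under 30, 7.55% exceeded it in LSK and 10.3% in promyelocytes. The shares were 4.81% for myelocytes and 6.8% for granulocytes. The ratio closest to the limit was 0.0966, for let-7e in granulocytes. The lowest was 0.00480, for let-7a in myelocytes, from the nuclear well at 35.28. Without the divisor of 3 all 6 members exceeded 0.1 in promyelocytes and in granulocytes, as did 58 of 87 and 82 of 103 named assays, so that the place of the members below the limit at these stages rests on the divisor.

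The ratio of the whole plate moved in the same direction. The members' median was 1.08 and 1.09 times that of the named assays in LSK and myelocytes, and 1.67 and 1.49 times in promyelocytes and granulocytes. Relative to the plate, the let-7 members were therefore close to the middle assay in LSK and myelocytes and somewhat above it at the other stages.

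**Figure D4:**
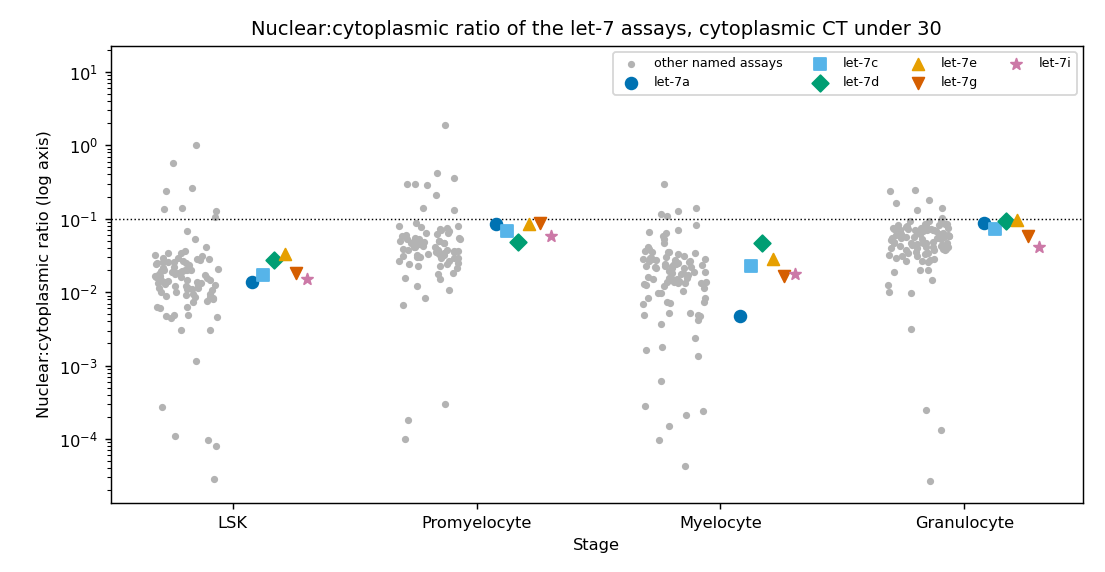
Nuclear to cytoplasmic ratio (vertical log axis) of each let-7 assay (coloured symbols) and of other named assays whose cytoplasmic CT was under 30 (grey points) by stage, with a dotted line at 0.1. All let-7 symbols are under the line, from 0.00480 for let-7a in myelocytes to 0.0966 for let-7e in granulocytes, and the grey points shift upward in promyelocytes and granulocytes as well.

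The pattern of each member over the 12 samples was compared with that of 78 named assays outside the family that were under a CT of 35 in all samples. Each assay was centred on its own mean, and likeness is the root mean square difference in cycles, so that smaller is more alike. Samples share input and card, so likeness also holds what they share. let-7i was nearest to miR-19b at 0.290 and miR-19a at 0.308, which are encoded together in the miR-17 polycistron. let-7c and let-7d were both nearest to miR-92a, which that polycistron also encodes, at 0.376 and 0.343, and then to miR-106a. Whether the miR-19b and miR-92a read here came from that polycistron or from another gene was not tested. let-7e was nearest to miR-92a at 0.475 and miR-191 at 0.530. let-7a was nearest to miR-19b and miR-374, at 0.685 and 0.698. These last neighbours were the least settled. Over the whole cell samples alone let-7e was nearest to miR-425* and miR-188-5p and let-7a to miR-20a and miR-130b, and by Pearson's r let-7e was nearest to miR-7a* and miR-93*.

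let-7g had other nearest assays than its relatives, miR-25 at 0.359 and miR-24 at 0.442 cycles. Its difference from the other members had a median of 0.874 over 5 pairs, where the 10 pairs without let-7g had a median of 0.615. The closest pair of members was let-7c with let-7d at 0.369, and the farthest was let-7d with let-7g at 0.995. let-7a and let-7e, whose sequences differ by 1 base, were 0.873 apart over the 12 samples and 0.529 apart over the whole cell samples. For let-7g and let-7i, which differ by 2 bases, the values were 0.604 and 0.643, so the order of these pairs turned. The first let-7a value includes its nuclear myelocyte well at 35.28. All 15 pairs were under the median of 1.47 for pairs of other assays.

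miR-98, which carries the let-7 seed, had whole cell CTs of 31.96, 30.22, 30.51 and 30.50 from LSK to granulocytes. None was under 30. It lay 0.0789 cycles root mean square from let-7i over the whole cell samples and 0.561 over all 12. Its scaled log2 change was 1.49 for promyelocytes against LSK and −0.71 for granulocytes against promyelocytes. It too was highest in promyelocytes.

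The passenger arms, the strands of the let-7 hairpins that are mostly discarded, were faint and none was under 30. let-7a* had whole cell CTs of 32.60, 31.53, 32.70 and 32.50, with its lowest CT in promyelocytes as for let-7a. let-7g* was at 35.21, 34.72, 35.90 and 34.43. let-7d* was at 33.79 and 33.56 in LSK and promyelocytes and undetermined in myelocytes and granulocytes. let-7c-1* was undetermined at 3 of the 4 stages and let-7b* at all of them.

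let-7e lies 137 bases from miR-99b and 368 bases from miR-125a on the same strand, and these neighbours followed another course in whole cell RNA. miR-125a-5p had whole cell CTs of 28.76, 34.79, 35.41 and 34.12 from LSK to granulocytes. miR-99b was at 31.47, 36.49, 36.77 and 35.32. Both had most of their template in LSK. Their scaled log2 changes for promyelocytes against LSK were −6.28 and −5.27, where let-7e was at 0.01. The later values of both are above the CT of 30, so these changes are less certain in size. In cytoplasm miR-99b went from 29.99 in LSK to undetermined in myelocytes, while let-7e lay between 24.33 and 26.54. There let-7e too had its most template in LSK, with a raw log2 change of −2.21 for promyelocytes against LSK. miR-99b was at −6.82 and miR-125a-5p at −7.71, so the raw cytoplasmic contrast was one of size.

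let-7c shows a smaller contrast of the same kind with miR-125b-5p, a stem cell miRNA whose genes lie in related clusters. miR-125b-5p had whole cell CTs of 28.87, 30.91, 31.08 and 32.05, a scaled log2 change of −3.86 for granulocytes against LSK, where let-7c was at −0.63. In cytoplasm the raw changes were −6.05 for miR-125b-5p and −2.22 for let-7c. miR-99a, whose gene is 657 bases from Mirlet7c-1, could not be named.

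**Figure D5:**
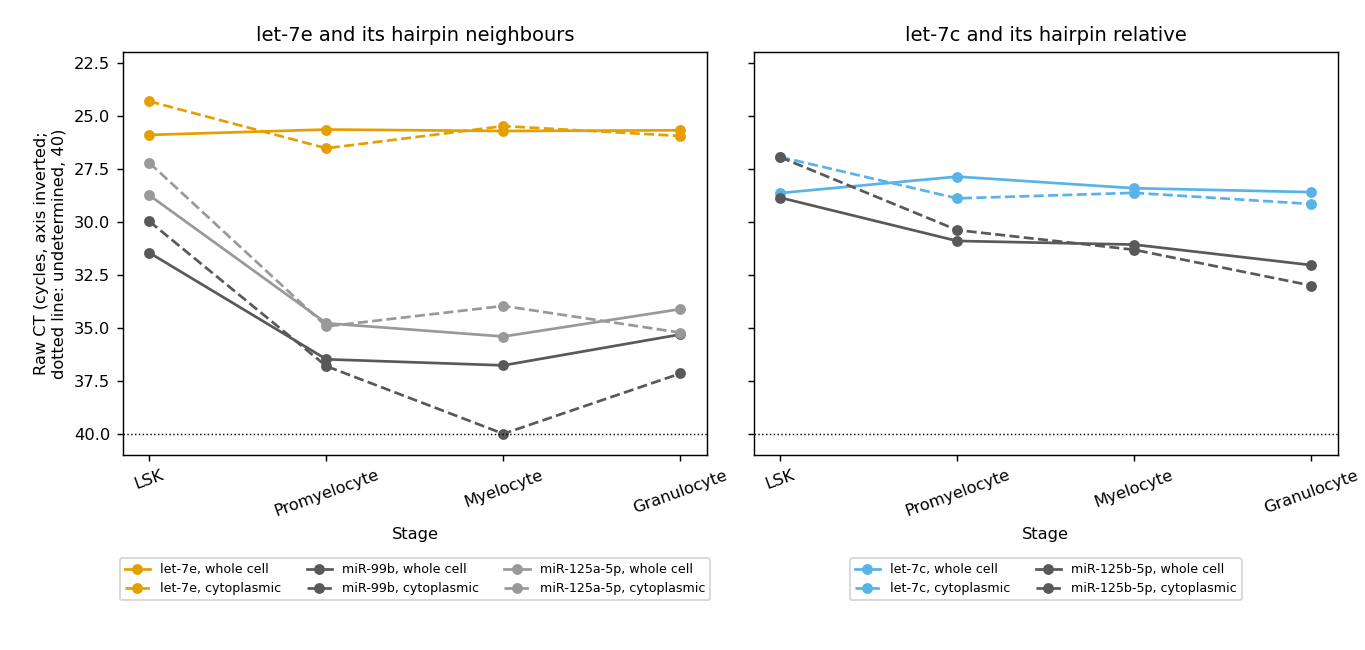
Raw CT (vertical axis, inverted, dotted line at 40 for undetermined wells) by stage for let-7e with miR-99b and miR-125a-5p, and for let-7c with miR-125b-5p, in whole cell (solid) and cytoplasmic (dashed) RNA, 1 well per point. The whole cell let-7e line stays between 25.65 and 25.91 while miR-125a-5p goes from 28.76 in LSK to 34.79 in promyelocytes.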

How the data were processed

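TaqMan rodent miRNA cards A and B (v2) were run on 100 ng of RNA from each of the 12 samples, the CT values were called by the authors with SDS 2.3 and RQ Manager, and the deposited scores are these CT values without normalization. Samples were grouped by the stage and fraction in their labels. The assays are numbered in the table. They were named where the cytoplasmic and nuclear CTs matched an entry of the study's published list within 0.0005 cycles (5 members), or where whole cell differences matched its second list within 0.002 (let-7a). Values of that list are 1.71 times the log2 differences plus a constant, by a straight line through all 106 assays already named, and were matched on that line. The second list was chosen by the study from these samples, and it names all 129 of the 140 assays under 30 that have a name. The members follow a rule on names, and both the rule and the lists were chosen with earlier results of these data known. Log2 changes are CT differences minus that of the scaling assays (the last 3 of card B, averaged), while the members lie on card A. The alternatives were no scaling, the mean of 73 named assays under 30 in all whole cell samples, 6 control assays (unnamed assays with a lower nuclear than cytoplasmic CT at every stage), 1.9-fold per cycle and fold limits of 1.5 and 3. The 2 control assays of card A were added after seeing the data. These 2 and the last 3 of card B are all among the 6 control assays. With 1 sample per group there was no test. Named assays followed a rule: members, same-seed and passenger relatives, hairpin neighbours, and the 2 nearest assays per member. The computations, in Python 3.11.15 with pandas 2.3.3, were tested on simulated data.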

Additional observations from a re-analysis of the deposited data

Results flagged for a closer look

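The let-7 members had opposite orders of promyelocytes and LSK in whole cell and cytoplasmic RNA when raw CTs were compared. Without scaling, the median log2 change of promyelocytes against LSK was 1.23 in whole cell RNA, with every member above 0, and −1.81 in cytoplasmic RNA, with every member below 0. The difference between the fractions was not tested, since each fraction of a stage is 1 sample. Scaling by the last 3 assays of the table gave medians of 0.98 and 0.04. In cytoplasmic RNA 5 of 6 members were above 0 with the 6 control assays, and all 6 were with the control assays of card A, from 0.20 to 1.21 with a median of 0.60, the direction of whole cell RNA. These scalings are not independent, since the last 3 assays and those of card A are among the 6 control assays. All of them had a lower nuclear than cytoplasmic CT at every stage. With the mean of named assays the cytoplasmic median was −0.64.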

How the results depend on the processing

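With 1 well per assay, no value has an error, and detection limits the values above a CT of 30. In whole cell RNA, of 120 member changes under 4 other scalings, 11 had another sign than with the last 3 assays of card B, and 0 of those 11 had been past 2-fold. In cytoplasmic RNA calls past 2-fold did turn, as for granulocytes against promyelocytes. There 6 members were lower by 2-fold with the last 3 assays, as were 88 of the 129 assays. Without scaling 4 members were above 0 and 1 was higher by 2-fold, beside 74 of the 129 assays. The cause of the shifts below was not tested. The medians for promyelocytes against LSK, myelocytes against promyelocytes, granulocytes against myelocytes, granulocytes against promyelocytes and granulocytes against LSK were 1.23, −0.19, −0.17, −0.59 and 0.62 with no scaling, and 0.65, −0.69, −0.59, −1.52 and −0.89 with the mean of named assays. They were 0.88, −0.15, −0.54, −0.93 and −0.06 with the 6 control assays, 0.91, −0.16, −0.56, −0.95 and −0.052 at 1.9-fold per cycle, and 1.02, −0.25, −0.34, −0.83 and 0.18 with the control assays of card A, an alternative chosen after seeing the data.

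Counts of members past the fold limit moved as follows. With no scaling, 4 were higher for promyelocytes against LSK, beside 51 of the 129 assays, and 0 were lower for granulocytes against myelocytes. On that scaling 0 were lower and 1 higher for granulocytes against promyelocytes, and 2 were higher for granulocytes against LSK. With the mean of named assays, 1 was higher for promyelocytes against LSK and 1 lower for myelocytes against promyelocytes. With the same constant 4 were lower for granulocytes against promyelocytes, and 0 higher and 2 lower for granulocytes against LSK. With the control assays of card A, 0 were lower for granulocytes against myelocytes, and 2 were lower and 1 higher for granulocytes against promyelocytes. At a limit of 1.5-fold, 4 were higher for promyelocytes against LSK, 1 higher for myelocytes against promyelocytes and 4 lower for granulocytes against myelocytes. At the same limit 1 was higher and 4 were lower for granulocytes against promyelocytes, and 1 was lower for granulocytes against LSK. At 3-fold, 0 were higher for promyelocytes against LSK and 0 lower for granulocytes against myelocytes and against promyelocytes. The shares of all assays past 1.5-fold and 3-fold are not given here, so the counts at these limits have no background beside them.

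The gain of let-7g over the other members was −0.094, 1.96 and 1.87 in cytoplasmic RNA, 0.43, 1.20 and 1.62 in nuclear RNA, and −0.20, 2.08 and 1.88 against the median of the other 5, for promyelocytes against LSK, granulocytes against promyelocytes and granulocytes against LSK. Leaving out each of the other 5 in turn gave −0.23 to 0.13, 1.81 to 2.001 and 1.73 to 2.03. The median nuclear to cytoplasmic ratio from LSK to granulocytes was 0.0533, 0.228, 0.0604 and 0.242 without the divisor of 3. Over 0.1 were then 6, 1 and 6 members in promyelocytes, myelocytes and granulocytes, beside 58 of 87, 21 of 104 and 82 of 103 named assays. From LSK to granulocytes the members' median was 1.08, 1.67, 1.09 and 1.49 times the stage median of named assays. No paired analysis was possible because each group, a stage and fraction, has 1 sample, so no groups share 2 replicate numbers. Fractions were set side by side within each stage, with no test.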
